A study of Mus musculus with 20 samples.

Results

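The genes of mitochondrial fatty acid oxidation and of the citrate cycle were followed in atria of mice that carry one Tbx5G125R allele. The set held 39 genes chosen by name from textbook pathway membership, with earlier results of these data known. Of these, 22 stood for fatty acid uptake, transport and oxidation and 17 for the citrate cycle. All 39 were found by gene symbol and Ensembl ID among the 33446 genes of the right atrium (RA) table and the 41128 genes of the left atrium (LA) table, and all 39 passed the filter on low values in both.

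RNA-seq had been performed on whole atria from female mice, 8 to 12 weeks old, of both genotypes. Tbx5G125R/+ mice carry 1 copy of a G125R substitution that CRISPR-Cas9 had introduced into Tbx5, which encodes a transcription factor of the T-box family. They were set against control mice of the same sex and age range. The 20 libraries formed 4 groups of 5, namely Tbx5G125R/+ RA, control RA, Tbx5G125R/+ LA and control LA. The allele was in the germ line and therefore in every cell type of the tissue, and the RA samples contained sinoatrial node tissue according to the study. The labels list the libraries as separate samples without animal identities, so p-values measure the spread between libraries, which may be technical in part.

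The heart draws most of its ATP from the oxidation of long-chain fatty acids. Fatty acids are taken up and bound to coenzyme A, carried into mitochondria as carnitine esters, and shortened in a repeating spiral of dehydrogenation, hydration, dehydrogenation and thiolysis. The acetyl-CoA released is burnt in the citrate cycle, and the electrons of both pathways enter the respiratory chain.

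Tbx5 mRNA did not differ detectably between genotypes, at 6153 ± 584 normalized counts in Tbx5G125R/+ RA against 6113 ± 1088 in control RA (SD, n = 5 each), and at 1520 ± 189 in Tbx5G125R/+ LA against 1459 ± 329 in control LA. Total mRNA does not separate the alleles, so it does not check the genotype. RA libraries held 17479665 to 26805205 reads and LA libraries 19136299 to 24841848. Mitochondrial rRNA took 7.28% to 15.7% of the reads in RA and 19.5% to 46.7% in LA. The LA libraries stood apart in another way that bears on these genes. Relative to the mean of all 10 LA libraries, transcripts rich in G and C were raised in LA Tbx5G125R/+ 1 (by 0.72 on the log2 scale per 10% of GC) and LA Tbx5G125R/+ 5 (by 0.39), against slopes between -0.27 and 0.05 in the other 8 LA libraries and between -0.04 and 0.08 in all RA libraries. These slopes compare libraries within an atrium and do not show which of them lie nearer the RNA levels of the tissue. LA control 1 alone held many reads of the brown fat gene Ucp1, 924 against 0 to 13 in the other LA libraries.

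In the RA, 3 fatty acid oxidation genes fell in Tbx5G125R/+ mice and no member rose. They were Acadvl, Hadhb and Eci1, which act at the first step of the spiral, at its last steps and on unsaturated chains. Each was about 20% to 25% lower, with fitted levels at 75.2% (Acadvl), 79.5% (Hadhb) and 79.9% (Eci1) of control. None of the 17 citrate cycle genes passed the test in limma (2 had an unadjusted p under 0.05, edgeR called 0 and DESeq2 1). Calls required an adjusted p under 0.05 in limma, with Benjamini-Hochberg adjustment over 14288 tested genes, of which 6.23% passed (3.14% lower and 3.09% higher). The members' share of 3 lower of 39 (7.69%) thus exceeds that of all genes by few genes, and with a set of 39 nothing more is read from it.

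The direction was shared more widely than the calls. The fold change was negative for 35 of 39 members, with a median of -0.15 on the log2 scale, while 52.6% of all tested genes and 58.3% of those at or above the lowest member's level were negative, with medians of -0.01 and -0.03. The members' median ran from -0.19 (without control 1) to -0.08 (quantile scaling, with 29 of 39 negative) over all settings tried. The fatty acid oxidation genes had a median of -0.19 (19 of 22 negative) and the citrate cycle genes a median of -0.10 (16 of 17 negative). An unadjusted p under 0.05 was reached by 12 members, against 21.3% of all genes. Members of one pathway vary together between libraries, so these counts are a description and carry no test. In whole tissue, fewer cells of a type and less RNA per cell cannot be told apart. By sequencing of single nuclei, the study reported a larger share of cardiomyocytes and a smaller share of fibroblasts in Tbx5G125R/+ right atrium. The part of such shares in the whole-tissue values was not tested.

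**Figure D1:**
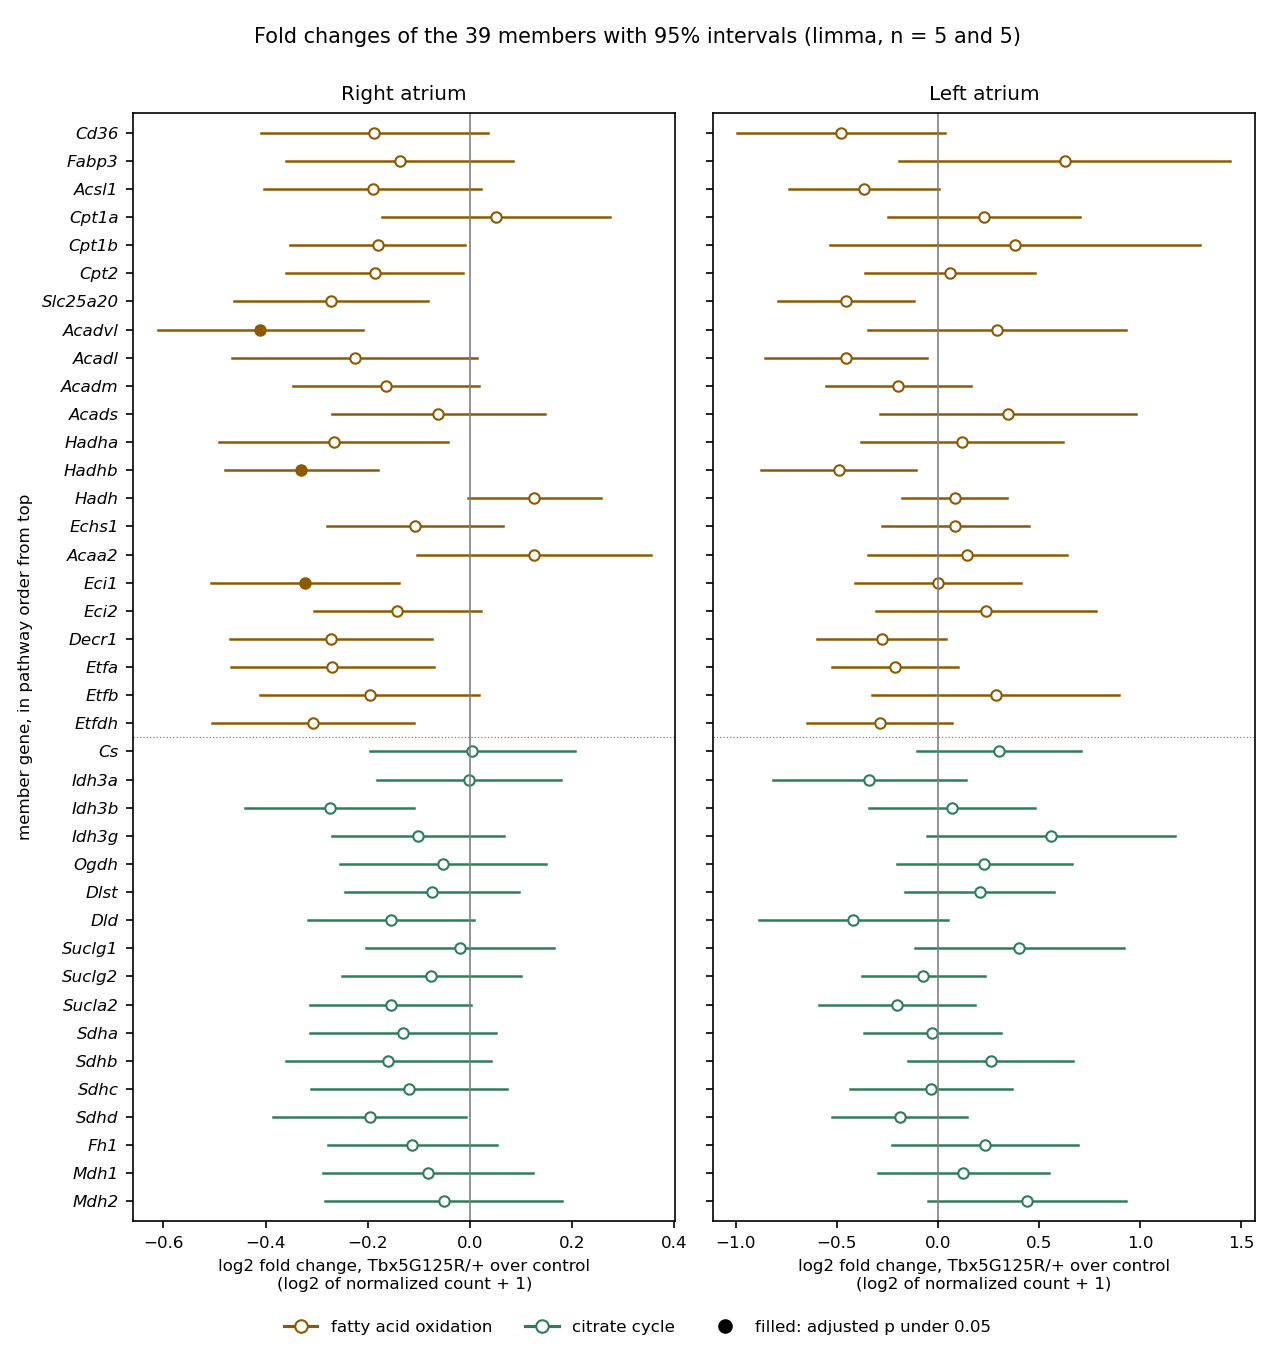
Log2 fold changes (Tbx5G125R/+ over control) of the 39 members in pathway order, in the RA (left) and LA (right), with 95% intervals from limma. The x ranges of the panels differ. Filled points passed an adjusted p of 0.05, which 3 members did in the RA (Acadvl, Hadhb, Eci1) and none in the LA, where intervals are wider and point to both sides.

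Promoter sequences are shown for the 3 members called in the RA, as the stretch from 250 bases before to 50 bases after the RefSeq start (GRCm38.p6, 5′ to 3′ on the strand of the gene). Such windows were at hand for 34 of the 39 members. In Acadvl (chr11:70015379-70015678, minus strand) capitals mark AGGTCA, the half-site of nuclear receptors, which starts 87 bases before the transcript start. In Hadhb (chr5:30155003-30155302, plus strand) capitals mark the 85 bases between the GENCODE start of Hadhb and that of Hadha, which runs the other way. In Eci1 (chr17:24426433-24426732, plus strand) no motif of those searched was found, and nothing is in capitals.
Acadvl: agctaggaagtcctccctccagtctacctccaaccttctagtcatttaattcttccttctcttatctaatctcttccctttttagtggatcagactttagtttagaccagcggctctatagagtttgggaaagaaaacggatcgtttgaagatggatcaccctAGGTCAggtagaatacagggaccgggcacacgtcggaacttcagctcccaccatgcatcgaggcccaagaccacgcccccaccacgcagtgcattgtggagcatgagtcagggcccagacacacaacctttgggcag
Hadhb: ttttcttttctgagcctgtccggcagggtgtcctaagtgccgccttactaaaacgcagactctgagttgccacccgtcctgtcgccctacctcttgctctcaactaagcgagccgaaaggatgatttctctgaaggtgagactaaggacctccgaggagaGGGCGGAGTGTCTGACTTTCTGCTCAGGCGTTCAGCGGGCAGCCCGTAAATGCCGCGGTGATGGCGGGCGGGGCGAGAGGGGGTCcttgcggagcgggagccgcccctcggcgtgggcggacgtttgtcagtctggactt
Eci1: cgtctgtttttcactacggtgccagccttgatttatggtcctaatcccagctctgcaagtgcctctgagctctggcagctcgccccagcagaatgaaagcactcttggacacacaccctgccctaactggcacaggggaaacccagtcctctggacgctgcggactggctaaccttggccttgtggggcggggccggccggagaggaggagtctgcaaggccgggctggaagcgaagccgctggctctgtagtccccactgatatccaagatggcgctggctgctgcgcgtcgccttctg

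Hadha and Hadhb encode the subunits of the mitochondrial trifunctional protein and are transcribed away from each other, with these 85 bases between their GENCODE starts. On either strand, AGGTCA was present in promoters of 11 of 34 members (32.4%), among them Acadvl, Acadm and Cd36, against 18.1% of all genes in the RefSeq table. AAGGTCA, the extended half-site of estrogen-related receptors that contains AGGTCA, was present in 3 of 34 (8.82%, Acadm, Ogdh and Sdhd) against 5.38%. The T-box half-site AGGTGT was present in 2 of 34 (5.88%, Cs and Ogdh) against 15.7%. A match of letters is a description of the window and not a binding site.

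Uptake and activation were measured through 3 genes. Cd36, the fatty acid translocase of the cell surface, had 18827 ± 2123 normalized counts in Tbx5G125R/+ RA against 21425 ± 2428 in control RA (log2 fold change -0.19, 95% interval -0.41 to 0.04). Fabp3, the cytosolic carrier of heart muscle, had a fold change of -0.14 (-0.36 to 0.09), and Acsl1, which activates long-chain fatty acids, one of -0.19 (-0.40 to 0.02). All 3 intervals include 0.

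Within the carnitine shuttle, Slc25a20, the carrier that moves acylcarnitines across the inner membrane, came closest to a call. It had 1328, 1281, 1276, 1158 and 1205 normalized counts in Tbx5G125R/+ RA, against 1271, 1391, 1566, 1832 and 1533 in control RA. Only control 1 reached into the Tbx5G125R/+ range. The log2 fold change was -0.27 ± 0.09 (SE), with an adjusted p of 0.0946 in limma. Cpt2, the inner carnitine palmitoyltransferase, had -0.19 (-0.36 to -0.01), and the outer enzymes had -0.18 (-0.35 to -0.01) for Cpt1b, the muscle form, and 0.05 (-0.17 to 0.27) for Cpt1a, the liver form. The level of Cpt1b was low, at 109 normalized counts per kb of transcript in control RA against 292 for Cpt1a. In GENCODE M21, 2744 of the 3372 exon bases of Cpt1b are shared with another annotated gene. That gene has no values in either atrium here, so the deposited data do not show reads split with it. Whether reads of the shared bases were lost in counting is not known.

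The acyl-CoA dehydrogenases, which open each turn of the spiral for chains of different length, were led by Acadvl, the very long-chain enzyme. Acadvl had 4709, 5128, 5379, 4709 and 5247 normalized counts in Tbx5G125R/+ RA, against 5644, 6064, 7147, 8157 and 6673 in control RA. Every Tbx5G125R/+ library lay below every control library. Acadvl fell by 0.41 ± 0.09 (SE, log2; 95% interval -0.61 to -0.21), with an adjusted p of 0.0188 in limma. The call ended without Tbx5G125R/+ 4 (adjusted p = 0.0538) or without control 3 (0.0544), and stayed under 0.05 without any other single library.

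Acadvl shares 1151 of its 2686 exon bases with Dvl2 on the opposite strand. The library kit does not keep strand, so reads from the shared stretch cannot be told apart. Dvl2, a component of Wnt signalling, had 251 ± 15.7 normalized counts in Tbx5G125R/+ RA against 233 ± 14.6 in control RA, far below Acadvl and with a positive fold change (0.10, adjusted p = 0.488 in limma).

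The enzymes for shorter chains had smaller fold changes. Acadl had -0.23 (-0.47 to 0.01), Acadm, the medium-chain enzyme, -0.16 (-0.35 to 0.02) and Acads, the short-chain enzyme, -0.06 (-0.27 to 0.15). Whether Acadvl differs from them was not tested.

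The later steps of the spiral held the member of lowest p. Hadhb, the thiolase subunit of the trifunctional protein, had 1873, 2032, 2035, 2006 and 1961 normalized counts in Tbx5G125R/+ RA, against 2214, 2548, 2645, 2799 and 2293 in control RA. The groups did not overlap, which held for 3 of 39 members (7.69%, with Acadvl and Idh3b) in this direction and for 3.83% of all genes. It held for no member in the other direction, against 3.53% of all genes. Hadhb fell by 0.33 ± 0.07 (SE, log2; -0.48 to -0.18), with an adjusted p of 0.0127 in limma, and it stayed called when any single RA library was left out (0.00528 to 0.0394).

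Hadha, its partner subunit across the shared promoter region, had 12308 ± 1127 normalized counts in Tbx5G125R/+ RA against 14881 ± 2204 in control RA. Its fold change was -0.27 (-0.49 to -0.04) and its adjusted p 0.161 in limma. The 3 remaining enzymes of these steps lay around or above control. Hadh, the dehydrogenase for medium and short chains, had 0.13 (95% interval -0.00 to 0.26), Acaa2, the thiolase for such chains, 0.13 (-0.10 to 0.35) and Echs1, the short-chain hydratase, -0.11 (-0.28 to 0.07).

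All 3 auxiliary enzymes, which prepare unsaturated fatty acids for the spiral, had negative fold changes. Eci1, an enoyl-CoA isomerase, had 1641, 1653, 1568, 1760 and 1795 normalized counts in Tbx5G125R/+ RA, against 1778, 1914, 2232, 2466 and 2199 in control RA. Control 1 again overlapped the Tbx5G125R/+ range. Eci1 fell by 0.32 ± 0.08 (SE, log2; -0.51 to -0.14), with an adjusted p of 0.0406 in limma.

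This call was the least stable of the 3. It was kept without control 1 (adjusted p = 0.0111) or control 2 (0.0449), and was lost without any of control 3, 4 and 5 or any of Tbx5G125R/+ 1 to 5 (0.0576 to 0.105) and without the filter on low values (0.052). Decr1, the dienoyl-CoA reductase, had 3629, 4086, 4334, 3877 and 3811 normalized counts in Tbx5G125R/+ RA, against 4016, 4540, 5331, 5647 and 4435 in control RA. Its groups overlapped and its fold change of -0.27 ± 0.09 (SE) had an adjusted p of 0.107 in limma. Eci2, a second isomerase, had -0.14 (-0.31 to 0.02).

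The electron transfer flavoprotein, a dimer of Etfa and Etfb, passes electrons from the acyl-CoA dehydrogenases to Etfdh, which reduces ubiquinone. Etfdh had 6034, 6722, 6832, 6504 and 6904 normalized counts in Tbx5G125R/+ RA, against 6741, 8125, 8879, 9734 and 7600 in control RA. Control 1 was again the only control within the Tbx5G125R/+ range (fold change -0.31 ± 0.09, SE, adjusted p = 0.0709 in limma).

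Etfa had 2308, 3087, 2876, 2776 and 3333 normalized counts in Tbx5G125R/+ RA, against 3081, 3389, 3401, 3640 and 3732 in control RA. The groups overlapped through Tbx5G125R/+ 2 and 5, and the fold change was -0.27 ± 0.09 (SE) with an adjusted p of 0.111 in limma. Etfb had -0.20 (-0.41 to 0.02).

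**Figure D2:**
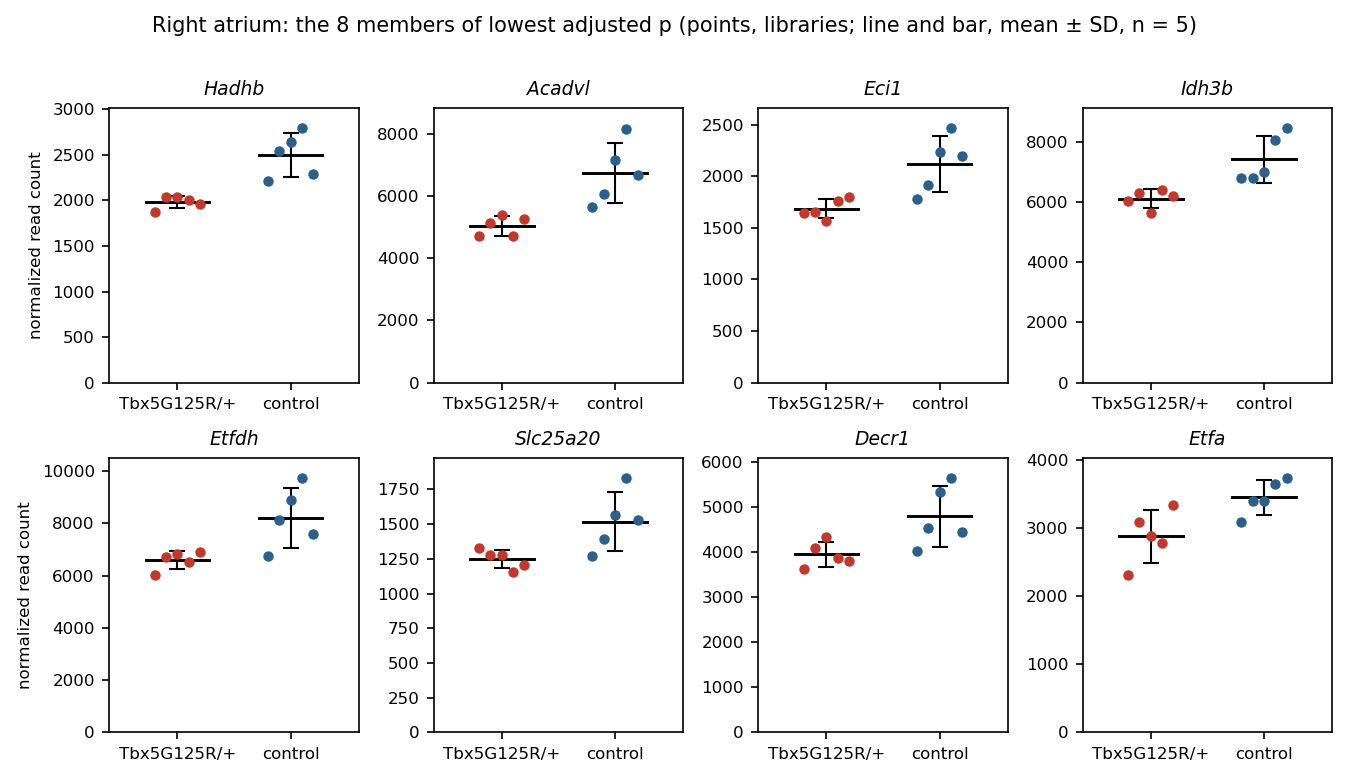
Normalized read counts (y axes from 0) of the 8 members of lowest adjusted p in the RA, one point per library, Tbx5G125R/+ left of control. Lines and bars are means ± SD of 5 libraries. In Hadhb, Acadvl and Idh3b all Tbx5G125R/+ libraries lie below all controls, and the controls spread more widely in 7 of the 8 genes, Etfa being the exception.

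Control 1 mattered across the set. It held the lowest control value of 34 of the 39 members, while control 4 held the highest of 17 of the 22 fatty acid oxidation genes and control 5 the highest of 14 of the 17 citrate cycle genes. Controls 4 and 5 also stood apart in a score of circadian clock genes (mean log2 level of evening genes minus that of morning genes), at 0.27 and -0.24 in the RA against 2.18 to 2.60 in controls 1 to 3. In the LA, controls 4 and 5 were both at -2.27 against 0.30 to 0.53 in controls 1 to 3, and each held the highest control value of 17 of the 39 members. With the clock score as a covariate 4 RA members were called (Idh3b added) and 34 were negative, and in the LA none was called and 13 were negative. The coefficient of variation of a member had a median of 6.02% in Tbx5G125R/+ RA and 11.8% in control RA. Without control 1 the count of called members was 7, all lower, with Idh3b (adjusted p = 0.0366), Etfdh (0.0154), Slc25a20 (0.028) and Decr1 (0.0364) added to the 3 above. Without Tbx5G125R/+ 4 or control 3 it was 1 (Hadhb), and with any other library left out it was 2 or 3. With the LA libraries in a joint model, in which both atria share a residual variance, it was 0. DESeq2 on recovered reads gave 5.

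In the citrate cycle, Idh3b, a noncatalytic subunit of the NAD-dependent isocitrate dehydrogenase, was the only gene without overlap. It had 6034, 6309, 5620, 6399 and 6197 normalized counts in Tbx5G125R/+ RA, against 6783, 6800, 6998, 8044 and 8462 in control RA. The fold change was -0.27 ± 0.08 (SE; -0.44 to -0.11), and the adjusted p of 0.0516 in limma missed the threshold. It ranged over 0.00774 to 0.681 across 25 other settings and was under 0.05 in 7 of them. The other subunits of the same enzyme had -0.00 (-0.18 to 0.18) for the catalytic Idh3a and -0.10 (-0.27 to 0.07) for Idh3g.

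The remaining citrate cycle members had fold changes between -0.20 and 0.01. Cs, citrate synthase, had 18404 ± 1717 normalized counts in Tbx5G125R/+ RA against 18345 ± 1823 in control RA, a fold change of 0.01 (-0.20 to 0.21). The 2-oxoglutarate dehydrogenase complex had -0.05 for Ogdh, its first enzyme, -0.07 for Dlst, its core, and -0.15 for Dld, a subunit it shares with pyruvate dehydrogenase. The succinyl-CoA ligase subunits had -0.02 (Suclg1), -0.07 (Suclg2) and -0.16 (Sucla2).

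Succinate dehydrogenase, also complex II of the respiratory chain, had negative fold changes in all 4 subunits, at -0.13 (Sdha), -0.16 (Sdhb), -0.12 (Sdhc) and -0.20 (Sdhd, -0.38 to -0.01). Fumarase (Fh1) had -0.11, cytosolic malate dehydrogenase (Mdh1) -0.08 and mitochondrial malate dehydrogenase (Mdh2) -0.05. None of the 17 was called, and their intervals together spanned -0.44 to 0.21. On the scale of normalized counts per kb of transcript, Mdh1 was the most abundant member in control RA (20115), ahead of Mdh2 (9296) and Acaa2 (9020), and Cpt1b the least (109).

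Summed over the set, fatty acid oxidation genes took 6333 ± 169 CPM (reads scaled to a common total of nuclear reads) in Tbx5G125R/+ RA and 7009 ± 677 CPM in control RA. Citrate cycle genes took 10156 ± 483 CPM in Tbx5G125R/+ RA and 10577 ± 936 CPM in control RA. Marker genes of other cell types were read beside these sums. The 6 cardiomyocyte markers summed to 95404 to 146620 CPM in Tbx5G125R/+ RA and 92690 to 124510 in control RA, with 0 of 6 called. The 7 fibroblast markers summed to 2376 to 4217 CPM in Tbx5G125R/+ RA and 3337 to 5221 CPM in control RA, with all 7 fold changes negative and none called. The 8 adipocyte markers summed to 556 to 697 in Tbx5G125R/+ RA and 550 to 894 in control RA, with 6 of 8 negative and none called. Of the 4 brown adipocyte markers, which summed to 153 to 215 CPM in Tbx5G125R/+ RA and 173 to 269 CPM in control RA, Elovl3 was at 0 in every RA library and the defining gene Ucp1 at 0 to 62 reads in Tbx5G125R/+ RA and 0 to 2 in control RA. The 4 smooth muscle markers summed to 109 to 138 CPM in Tbx5G125R/+ RA and 140 to 367 CPM in control RA, with 2 of 4 called lower (Acta2 and Cnn1). Of the 3 tested ventricular markers, 2 were called lower (Myl2 and Myl3), with 24.8 ± 14.3 normalized counts of Myl2 in Tbx5G125R/+ RA and 121 ± 92.7 in control RA, while the sum of the ventricular list was 1630 to 2152 CPM in Tbx5G125R/+ RA and 1777 to 2341 CPM in control RA. Of 6 atrial markers Gja5 was called higher and Bmp10 lower.

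Of 6 endothelial markers 1 was called higher, Kdr, a receptor of vascular endothelial growth factor (7348 ± 507 normalized counts in Tbx5G125R/+ RA, 4853 ± 274 in control RA). The endothelial sum was 1347 to 2193 CPM in Tbx5G125R/+ RA and 1291 to 2188 CPM in control RA, and controls 4 and 5, which led the members, had its lowest control values (1291 and 1318 CPM, against 2084 to 2188 CPM in controls 1 to 3). The fold changes of all 5 macrophage, all 4 mesothelial, all 3 endocardial and all 4 tested red blood cell markers were negative, and none was called. Of 4 tested skeletal muscle markers 3 were negative and 3 had an unadjusted p under 0.05 in limma, with none called. The skeletal muscle sum was 530 to 696 CPM in Tbx5G125R/+ RA and 626 to 940 CPM in control RA. Its highest control values were those of controls 4 and 5 (872 and 940 CPM). The part of these cell types in the lower values of the members was not tested. The number of genes with a read also moved with genotype in the RA (20149 ± 290 in Tbx5G125R/+ and 19437 ± 455 in control, exact permutation p = 0.0317), and its part was not tested.

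Neighbouring pathways in the RA were read through lists chosen from general knowledge, with earlier results of these data known. Among 22 other genes of fatty acid uptake, activation and storage, 1 rose and 1 fell. Lpl, the lipase that frees fatty acids from circulating lipoproteins, fell by 0.47 ± 0.11 (SE, log2), with 26747 ± 3466 normalized counts in Tbx5G125R/+ RA against 36955 ± 3702 in control RA (adjusted p = 0.0216 in limma). Acsl6, another activating enzyme, rose by 0.49 ± 0.11 (adjusted p = 0.0183 in limma). None of 23 other carnitine and beta-oxidation genes was called at this threshold in limma, with 2 at an unadjusted p under 0.05 and 0 called by edgeR or DESeq2. Among 24 other citrate cycle and anaplerosis genes only Adhfe1, which oxidizes hydroxybutyrate while reducing 2-oxoglutarate, fell (-0.44 ± 0.07, adjusted p = 0.00255 in limma).

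At the entry of pyruvate, 2 of 13 genes rose. Pdhx, which anchors the dihydrolipoamide dehydrogenase in the pyruvate dehydrogenase complex, rose by 0.44 ± 0.08 (SE, log2; adjusted p = 0.00528 in limma), with all Tbx5G125R/+ libraries above all controls. Pdp1, the phosphatase that activates the complex, rose by 0.46 ± 0.11 (adjusted p = 0.0264 in limma).

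Of 14 measured genes that respond to PPAR receptors, Ucp2, an uncoupling protein, fell (-0.38 ± 0.10, adjusted p = 0.0355 in limma). That list also holds Fabp3, Cpt1b, Acadm and Cd36 of the present set. Of 26 regulators, Tbx20, a T-box factor, and Ppargc1b, a coactivator of mitochondrial genes, rose by 0.61 ± 0.10 and 0.36 ± 0.08 (adjusted p = 0.00272 and 0.0244 in limma), and Rxrg, a retinoid X receptor, fell by 0.59 ± 0.13 (adjusted p = 0.02 in limma). Apart from Acsl4 and Acsl5, which DESeq2 alone called lower, edgeR and DESeq2 called the same genes in these 6 lists.

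In the LA no member passed the test, and the fold changes pointed both ways. Of 39 members, 0 were called by limma (1.2% of 13192 tested genes were, 0.44% lower and 0.758% higher), 0 by edgeR and 0 by DESeq2 on recovered reads. An unadjusted p under 0.05 was reached by 3, Slc25a20, Hadhb and Acadl, all with negative fold changes, against 16.6% of all genes. The median was 0.08 with 16 of 39 negative, beside a median of -0.01 for all genes. The median SE was 0.19, against 0.09 in the RA. In no member did the groups lie apart, while 1.46% of all genes had every Tbx5G125R/+ library below every control and 2.02% every one above. None of the neighbouring pathway genes was called in the LA by limma or edgeR. DESeq2 called Acot1, Acot2, Lpl and Adhfe1 lower and Pdhx and Acaa1a higher. The 6 cardiomyocyte markers summed to 33258 to 89535 CPM in Tbx5G125R/+ LA and 32712 to 75667 CPM in control LA. Library 4 was the lowest of both groups. All 6 fold changes were positive, and only DESeq2 called 1 (Tnnt2, higher). All 3 endocardial and all 7 fibroblast fold changes were negative, and only DESeq2 called 1 (Npr3, lower). Of 6 endothelial fold changes 4 were negative, and only DESeq2 called 1 (Tek, lower). All 4 mesothelial fold changes were negative, and none was called. Of 3 tested ventricular markers 1 was called lower in limma. The part of these cell types in the LA values was not tested.

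Slc25a20 had 816, 652, 736, 633 and 955 normalized counts in Tbx5G125R/+ LA, against 909, 869, 991, 1276 and 1150 in control LA. Tbx5G125R/+ 5 alone reached the control range (fold change -0.46 ± 0.16, SE, adjusted p = 0.207 in limma). Hadhb had 2489, 3045, 3554, 3413 and 3392 in Tbx5G125R/+ LA, against 2995, 4888, 4244, 5774 and 4760 in control LA. Control 1, the library with Ucp1 reads, was the only overlapping control of Hadhb (fold change -0.49 ± 0.18, SE, adjusted p = 0.223 in limma). With all 4 groups in a single model both genes were called (adjusted p of 0.029 and 0.0277 in limma). That model gives each gene a single residual variance for both atria. In it the SE was 0.127 for Slc25a20 and 0.136 for Hadhb, in the LA and the RA alike. The separate fits gave 0.158 and 0.179 in the LA and 0.088 and 0.0693 in the RA.

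Acadl had 4952, 6308, 8232, 6292 and 5836 normalized counts in Tbx5G125R/+ LA, against 6321, 9138, 8445, 11804 and 7920 in control LA (fold change -0.45, -0.85 to -0.06). Acsl1 had 9248, 8474, 9324, 7312 and 11331 in Tbx5G125R/+ LA, against 9048, 11760, 11106, 14970 and 12179 in control LA (-0.37, -0.74 to 0.01). Both overlapped, and control 4 held the highest value of each.

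Cd36 had 27831, 37249, 47805, 47447 and 40694 normalized counts in Tbx5G125R/+ LA, against 35892, 58735, 55460, 74334 and 57429 in control LA (-0.48, -0.99 to 0.04). Dld had 9121, 13553, 14779, 16647 and 11905 in Tbx5G125R/+ LA, against 11590, 17706, 15991, 23789 and 19741 in control LA (-0.42, -0.88 to 0.05). In both, Tbx5G125R/+ 1 was the lowest library of all 10.

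The members with the opposite sign showed another pattern. Idh3g had 2851, 1184, 1282, 871 and 2788 normalized counts in Tbx5G125R/+ LA, against 1242, 941, 965, 1087 and 1228 in control LA (0.56, -0.05 to 1.17). Mdh2 had 3188, 1585, 1698, 1270 and 2777 in Tbx5G125R/+ LA, against 1477, 1231, 1276, 1704 and 1661 in control LA (0.44, -0.05 to 0.93). The high values came from Tbx5G125R/+ 1 and 5 alone, the libraries that stood apart by GC content.

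**Figure D3:**
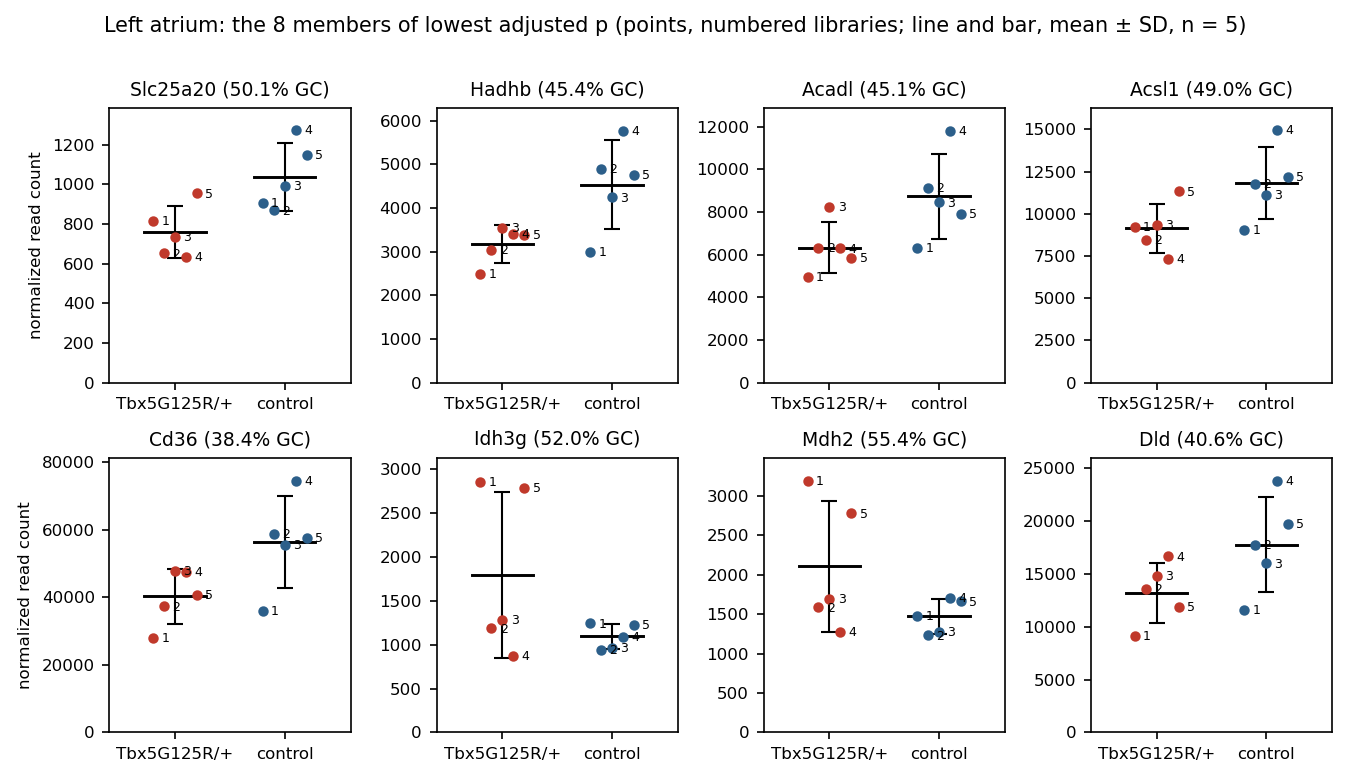
Normalized read counts (y axes from 0) of the 8 members of lowest adjusted p in the LA, one numbered point per library, Tbx5G125R/+ left of control, with the GC content of each transcript. Lines and bars are means ± SD of 5 libraries. Libraries 1 and 5 of Tbx5G125R/+ are far above the others in Idh3g (52.0% GC) and Mdh2 (55.4% GC) and are the lowest 2 of their group in Dld (40.6% GC).

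Across the 39 members, the LA fold change followed the GC content of the transcript (Pearson's r = 0.75 and Spearman's rho = 0.77 across genes, which share libraries and are not independent replicates). Of the 13 members of lowest GC content (38.4% to 48.0%), 11 had negative fold changes, with a median of -0.28, and all 13 of highest GC content (52.0% to 60.1%) had positive ones, with a median of 0.29. In the RA r was 0.13, and 13 of the 13 genes of lowest and 12 of the 13 of highest GC content were negative. LA Tbx5G125R/+ 1 and 5 were the highest 2 of their group in 25 members and the lowest 2 in 3. LA Tbx5G125R/+ 4 held the lowest value of its group in 25 members, and LA control 1 the lowest control value in 20. The levels also differed with GC content between the atria. Median normalized counts per kb in control LA were 4410, 1144 and 520 for the 13 members of lowest, middle and highest GC content. In control RA they were 3412, 3257 and 5687. The part of this in the LA fold changes and in the difference between atria was not tested.

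**Figure D4:**
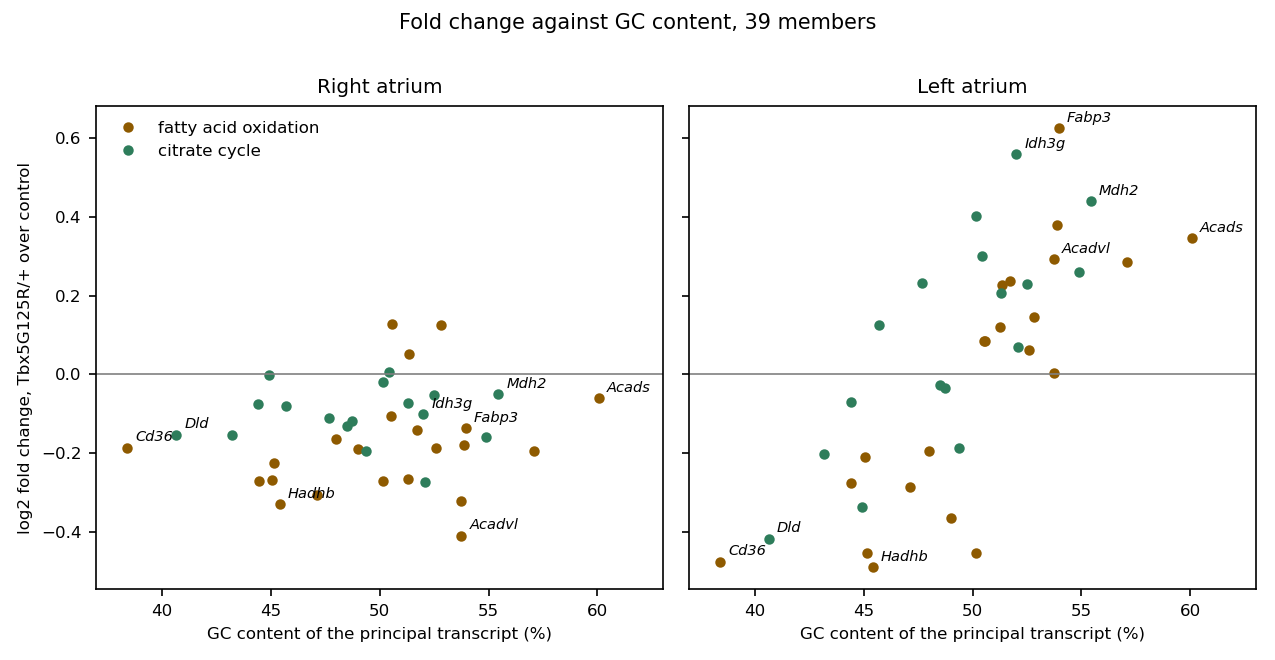
Log2 fold change (Tbx5G125R/+ over control) of each member against the GC content of its principal transcript in %, in the RA (left) and LA (right). The LA points climb with GC content from Cd36 and Dld to Fabp3 and Mdh2, while the RA points lie mostly below 0 over the whole range.

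The number of negative LA fold changes depended on how this property was handled, in alternatives chosen after seeing the data. With the GC slope of each library as a covariate 34 of 39 were negative with a median of -0.10, without Tbx5G125R/+ 1 and 5 (3 libraries against 5) 31 were negative with a median of -0.15, and with a smooth GC trend removed from each library 20 were negative with a median of -0.01. No member was called in any of the 3. Quantile scaling moved the other way, with 10 negative and a median of 0.25, the far end of the range over all settings (10 to 34 negative, medians of -0.15 to 0.25). Leaving out the libraries with over 40% mitochondrial rRNA left 14 negative and none called, and leaving out control 1, the library with Ucp1 reads, left 17 negative and none called. The sums also split, with fatty acid oxidation genes at 8284 ± 898 nuclear CPM in Tbx5G125R/+ LA against 9293 ± 882 in control LA, and citrate cycle genes at 10439 ± 1643 against 9619 ± 870.

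The LA change minus the RA change was tested over all 20 libraries. None of the 39 members was called by limma (0.0638% of 12537 genes were, 0.0399% lower and 0.0239% higher), and 0 had an unadjusted p under 0.05, against 8.14% of all genes. edgeR and DESeq2 called 0 as well. The lowest p was that of Acadvl, whose LA counts of 1968, 943, 1006, 501 and 1893 in Tbx5G125R/+ and 1113, 778, 902, 918 and 895 in control gave a fold change of 0.29 (-0.35 to 0.93), beside -0.41 in the RA. The difference was 0.70 (-0.01 to 1.42, adjusted p = 0.56 in limma). This fit took the 20 libraries as independent, although same-numbered LA and RA libraries deviated together in all 5 control pairs (r of 0.27 to 0.40) and in 4 of 5 Tbx5G125R/+ pairs (0.13 to 0.20, and -0.07 in pair 1). The labels do not say that they share an animal. With genotype and number together as a block, 0 members were called.

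Idh3g had 7026, 7723, 7352, 8169 and 7624 normalized counts in Tbx5G125R/+ RA against 7455, 7556, 7593, 8978 and 9195 in control RA, and a difference between atria of 0.66 (-0.02 to 1.34). Sdhb, the iron-sulfur subunit of succinate dehydrogenase, had 8125, 8835, 7658, 8547 and 8180 in Tbx5G125R/+ RA against 8132, 8670, 8211, 10470 and 11014 in control RA. In the LA it had 3179, 2089, 2072, 1698 and 3298 in Tbx5G125R/+ against 1789, 1800, 1882, 2071 and 2486 in control. Its difference was 0.42 (-0.04 to 0.87). In these 3 genes, too, the LA values of Tbx5G125R/+ 1 and 5 stood above the rest of the group. The intervals of the differences leave room for changes in the atria that are alike and for ones that are not.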

How the data were processed

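RNA was extracted from whole atria and libraries were made from 300 ng with a TruSeq RNA v2 kit, per the labels. The submitters' processing notes name STAR, mm10 and DESeq2, without versions, and the read counter is not given in the sources used here. The deposited values are a signal, namely read counts that the authors divided by DESeq2 size factors, separately for each atrium. Division by the step of each library gave back whole reads for 100% of values within 0.01 reads, except that for LA Tbx5G125R/+ 3, whose step is close to 1, this check has little power. Columns with the authors' own fold changes and p-values were not used. CPM sums were computed from the recovered reads of nuclear genes. Of 40924 RA entries, 6275 without values and 1203 repeats were removed.

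Each atrium was tested with limma 3.58.1 (R 4.3.3) on log2 of the normalized count plus 1, keeping genes that averaged 10 or more. The empirical Bayes prior followed mean expression, and p-values were adjusted over all tested genes by Benjamini and Hochberg. Fold changes are on that scale, which understates changes of low genes. The difference between atria was a contrast over all 20 libraries. For library properties an exact permutation test was used, two-sided, whose smallest p is 0.00794. As alternatives, the pseudocount was set to 0.5 or 5 and the filter to 50 or none, beside TMM and quantile scaling, robust empirical Bayes, all 4 groups in a single model, the replicate number as a block, mitochondrial rRNA share or a clock gene score as covariates, DESeq2 1.42.0 and edgeR 4.0.16 on recovered reads, each library left out, and, added after seeing the data, GC corrections and the leaving out of further libraries. The procedure was tested on simulated counts with known changes, drawn for each gene on its own and without GC slopes. That check therefore does not cover GC slopes or variation that genes share between libraries.

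The members and lists were chosen with earlier results of these data known. All members may be named. Values in every library are given for the 8 members of lowest adjusted p per atrium and the 3 of lowest p for the difference, and from each list the called genes. Positions, GC content and exon overlaps come from GENCODE M21 (GRCm38), which may differ from the annotation the authors used.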

Additional observations from a re-analysis of the deposited data

Results flagged for a closer look

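Among 64 groups of 5 libraries checked for a value far from the other 4, over library properties and the members given by library, 1 was picked out, where chance gives about 1 in 20. LA control 5 held 24.8 M reads, against 19.1 to 20.7 M reads in the other LA controls.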

How the results depend on the processing

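Against 3 RA members called, DESeq2 on recovered reads gave 5, all 4 groups in a single model 0, and leaving out single libraries 1 to 7. In the LA, against 0, a single model of 4 groups gave 2, and leaving out libraries 0. The difference between atria gave 0 members in every alternative. Replicate numbers are shared by the groups, but same-numbered libraries of the 2 genotypes did not deviate together in every pair (r of -0.03 to 0.27 in the RA and 0.03 to 0.32 in the LA), and 5 of 10 RA and 6 of 10 LA libraries correlated best with their own number, where chance gives 2 of 10. With the replicate number as a block, 6 RA members (Idh3b, Etfdh and Etfa added) and 1 LA member (Hadhb, adjusted p = 0.0368 in limma) were called. Over all genes, 890 calls in the RA became 1414 with the GC slope as a covariate and 267 when both atria shared a fit. The 158 LA calls became 431 with DESeq2, 92 with the GC slope, 1235 with all 4 groups, 289 with the mitochondrial rRNA share, 693 with the replicate block, 77 without the libraries of steepest GC slope and 245 without those of over 40% mitochondrial rRNA. The 8 calls for the difference became 38 with DESeq2, 1 with the GC slope, 13 with the mitochondrial rRNA share and 2 with a block of genotype and number. Leaving out single libraries gave 600 to 1091 calls in the RA, 71 to 370 in the LA and 0 to 11 for the difference. The causes were not tested. No called fold change of a member changed sign, and 29 to 36 of 39 RA members (medians of -0.19 to -0.08) and 10 to 34 LA members (-0.15 to 0.25) were negative.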
